A study of Mus musculus with 4 samples.

Results

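The cells described here are Cpa3-positive progenitors of the mouse fetal liver, chosen by their counts of 4 genes. Cpa3 encodes carboxypeptidase A3, a protease stored in mast cell granules. A cell was a member when it held at least 2 UMIs (unique molecular identifiers, one per captured transcript) of Cpa3, no UMI of Klf1, the erythroid transcription factor, and under 3 UMIs of Prg2 and Prg3 together, which encode eosinophil granule proteins. Of 9960 cells in all, 342 met this rule. Transcripts had been counted by droplet sequencing in progenitors of C57Bl/6J embryos at stage E14.5, sorted from whole fetal liver for CD34 and Kit and against Sca1 and lineage markers. Libraries A and B were labelled mutant, with the genotype Gata2-77-/- (both copies of the -77 enhancer of Gata2 deleted), and libraries F and I wild type, so each genotype had 2 libraries. Whether the libraries of a genotype came from separate embryos is not given in the sources used here, so p-values between genotypes measure the spread between libraries. Within the wild type, differences were taken inside each library, so p-values there rest on how these differences varied over 2 libraries. This variation was pooled over genes, in whole or in part, so a p-value does not measure how well its own gene repeated between libraries. The sort applied to both genotypes, so cells that had lost Kit or CD34, or gained a lineage marker, were not measured.

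Mast cells and basophils arise from GATA2-dependent myeloid progenitors. GATA2 and GATA1 bind related DNA words in mast cell genes, and enzymes of histamine synthesis, granule proteases and the high-affinity IgE receptor are made as the cells mature. In the mouse, KIT and its ligand sustain mast cells, and the early stages lie close to those of basophils, eosinophils, megakaryocytes and erythroid cells. The -77 element, upstream of Gata2, is known to raise Gata2 in myeloid progenitors.

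Libraries A, B, F and I held 2235, 2745, 3042 and 1938 cells, which add up to 4980 cells in each genotype. The median depth per cell was 7272 UMIs in the enhancer-deleted and 14292.5 UMIs in the wild-type cells, over a panel of 3624 genes, and total depth ran from 16837863 to 40117680 UMIs per library. Levels below are given as CPM of the panel, a gene's UMIs in a set of cells per 1000000 UMIs of all panel genes in that set. Genes that the panel leaves out have no value. Mitochondrial transcripts took 3.18% and 3.03% of the UMIs of members in libraries F and I, against 3.26% and 3.08% in the other cells of these libraries. The deposited table carries no cell barcodes, so barcodes shared by libraries could not be counted, and 0 pairs of cells had the same counts.

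Members were almost confined to the wild type. They numbered 1 cell each in libraries A and B, and 179 and 161 cells in libraries F and I. These were 0.0447% and 0.0364% of the enhancer-deleted cells, against 5.88% and 8.31% of the wild-type cells. The exact 95% binomial intervals, which cover counting error only, reached at most 0.249% in A and 0.203% in B, and began at 5.07% in F and 7.12% in I, so the genotypes did not overlap. The difference was -7.06 percentage points, with an exact two-sided permutation p of 0.333 over the 4 libraries, the smallest that 2 against 2 allows.

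The lower depth of the enhancer-deleted libraries makes 2 UMIs harder to reach, so every cell was also thinned to 4000 UMIs, which left out 719 shallower enhancer-deleted and 112 shallower wild-type cells. At this equal depth at least 1 UMI of Cpa3 was found in 0.315% and 0.255% of cells in A and B, against 6.61% and 7.20% in F and I. At least 2 UMIs were found in 0 of 1905 cells in A and 0 of 2356 cells in B, which allows shares of up to 0.193% and 0.156% by the exact interval, against 2.54% and 2.66% in F and I. The gap in the count of Cpa3-positive cells was therefore present at equal depth. Members are counted by their Cpa3 UMIs, so fewer such cells and less Cpa3 RNA per cell cannot be told apart in this count. Libraries F and I, whose untouched shares stood apart at 5.88% and 8.31%, lay close together once depth was equal. With 1 UMI of Cpa3 as the limit, the untouched shares were 0.313% and 0.656% in A and B, against 10.4% and 15.3% in F and I.

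Cells defined by other genes did not all follow. Mcpt8 encodes a basophil protease, and cells with at least 2 UMIs of Mcpt8, none of Cpa3 or Klf1 and under 3 of the Prg genes numbered 38 and 52 in A and B, against 50 and 41 in F and I. They made up 1.70% and 1.89% of the enhancer-deleted libraries and 1.64% and 2.12% of the wild-type libraries, and these ranges overlapped (difference -0.0823 percentage points, exact permutation p = 1). There were thus 38 and 52 Mcpt8-positive cells per member in A and B, against 0.279 and 0.255 in F and I. The ratios of A and B rest on 1 member each. The Mcpt8 class leaves out cells with Cpa3, which were mostly wild type. Of the Cpa3-positive cells within the other limits, 1 and 3 held Mcpt8 in A and B, against 41 and 50 in F and I. The Mcpt8 shares were not taken at equal depth, so the overlap holds for this definition only. Cells with at least 3 UMIs of Prg2 and Prg3 and none of Klf1 numbered 0 in both A and B, which allows shares of up to 0.165% and 0.134% by the exact interval, against 46 and 34 in F and I. Cells with Klf1 and Gata1 and under 3 UMIs of the Prg genes made up 0.0895% and 0.0729% of A and B, against 4.80% and 4.95% of F and I.

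**Figure D1:**
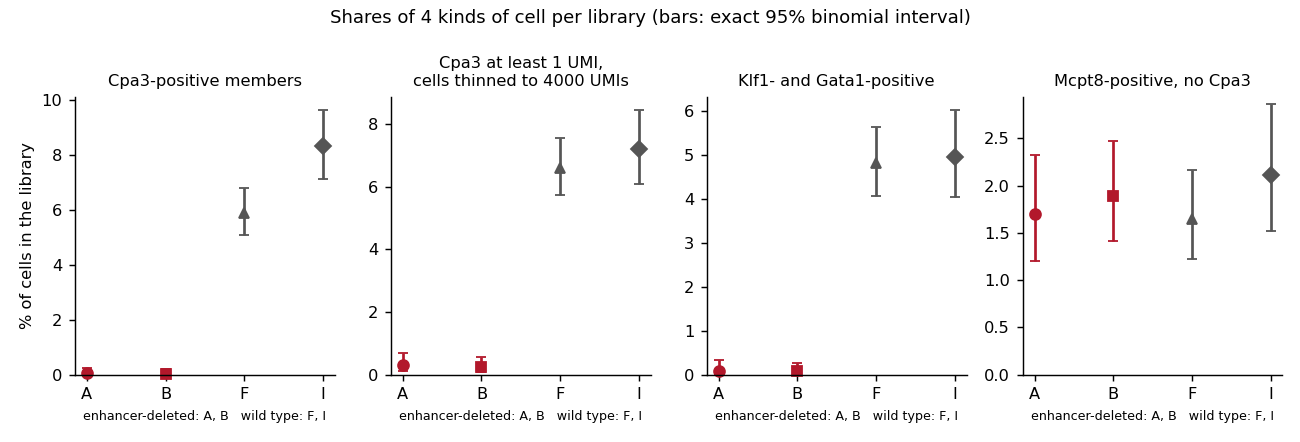
Share of cells (percent of the library, y axis) in enhancer-deleted libraries A and B and wild-type libraries F and I (x axis), for members, for cells with a Cpa3 UMI after thinning to 4000 UMIs, for Klf1- and Gata1-positive cells and for Mcpt8-positive cells without Cpa3; bars are exact 95% binomial intervals. Members lie under 0.05% in A and B and at 5.88% and 8.31% in F and I, while the Mcpt8-positive shares overlap between genotypes.

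How the limit falls among wild-type cells shows how sharp the class is. Cells with 2 or more UMIs of Cpa3 numbered 219 in F and 189 in I. Klf1 removed 25 and 17 of them, the Prg genes 17 and 11, and 2 cells in F failed both limits. The median member held 3 UMIs of Cpa3 in both libraries, and the highest held 24 in F and 25 in I. Just inside the limit, 66 and 57 members had exactly 2 UMIs of Cpa3. Just outside it 166 and 151 wild-type cells had 1, and 136 and 135 of these met the Klf1 and Prg limits. The members' median depth of 12833 UMIs in F and 17654 in I was close to that of the other cells, at 12826 and 17413. Together members held 70.1% of all Cpa3 UMIs in F and 75.5% in I, in 5.90% and 8.39% of all UMIs.

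Free RNA in a droplet can give a UMI to a cell that does not express the gene. Monocyte-type cells, taken as cells with at least 2 UMIs of Csf1r and none of Klf1, should lack Cpa3. Among them 2 UMIs of Cpa3 were found in 0 of 193 in A, 0 of 184 in B, 0 of 267 in F and 2 of 229 in I (a count of 0 allows 1.55%, 1.63% and 1.12% in A, B and F, taking 3 counts as the floor), and 1 UMI or more in 0%, 0.543%, 0.749% and 5.24%. Their median depth was 8370, 8447, 16192 and 22383 UMIs. The single members of A and B, at 2 UMIs each, stood at the very edge of the rule.

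The label of mast progenitor rests on few genes. Of 10 mast cell markers listed for this check, the panel held 4, Cpa3, Hdc, Ms4a2 and Kit, and Cpa3 had chosen the cells; the granule proteases Cma1, Mcpt4, Tpsb2 and Tpsab1 were not measured. Of 4 basophil markers it held Mcpt8 alone. Hdc, the enzyme that makes histamine, was detected in 59.8% of members in F and 68.9% in I, against 7.12% and 9.61% of the Csf1r-positive cells. Ms4a2, the beta chain of the IgE receptor, was detected in 17.3% and 6.83% of members, against 1.87% and 0% of the Csf1r-positive cells (0 of 229 in I, which allows 1.31%). Mcpt8 was detected in 10.6% and 15.5% of members, against 5.24% and 9.17% of the Csf1r-positive cells, so its share lay only a little above background. Mpo, which encodes the myeloperoxidase of granulocyte and monocyte precursors, was in 98.9% and 100% of members and also in 96.3% and 97.8% of the Csf1r-positive cells. Hdc and Ms4a2 thus set members apart from Csf1r-positive cells, where Kit was not compared. Hdc did not mark members alone, at 129 and 105 CPM in members and 264 and 245 in Prg2- and Prg3-positive cells. Between members and Klf1- and Gata1-positive cells, Ms4a2 was not called different (edgeR, adjusted p under 0.05). Most members showed no UMI of Ms4a2, and 18 members in F and 14 in I had no UMI of Hdc, Gata2, Ms4a2, Mcpt8, Gata1 or Perp.

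**Figure D2:**
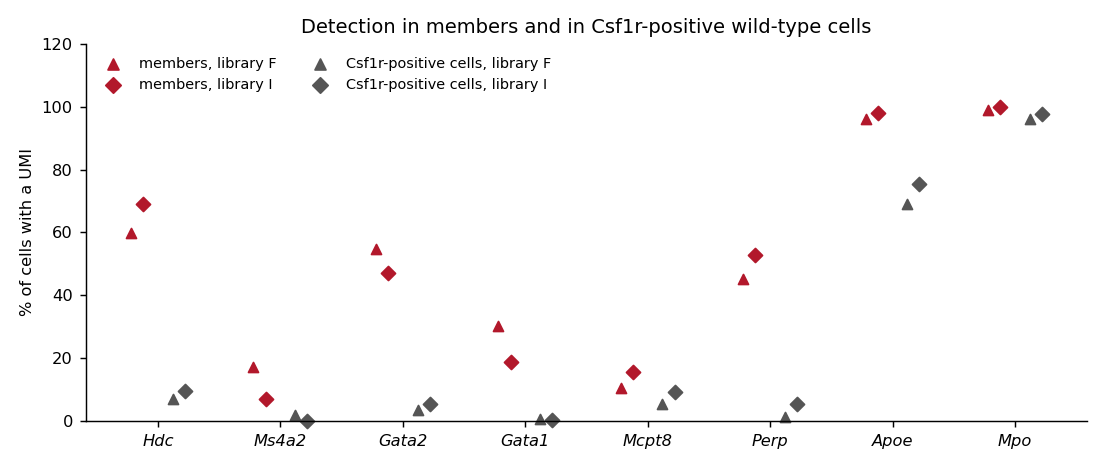
Percent of cells with at least 1 UMI (y axis) of 8 genes (x axis) in members and in Csf1r-positive cells of wild-type libraries F (triangles) and I (diamonds). Hdc, Gata2 and Perp are in 45.3% to 68.9% of members and in under 10% of Csf1r-positive cells, while Mpo is in nearly all cells of both kinds.

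The promoters of Cpa3, Hdc and Ms4a2 are shown because Cpa3 chose the cells and Hdc and Ms4a2 are the mast cell effector genes that the results turn on. They span 250 bases before and 50 after the annotated start, on the minus strand of chr3:20242132-20242431, chr2:126618629-126618928 and chr19:11623670-11623969 (RefSeq, GRCm38.p6, the assembly also called mm10). Capitals mark every AGATAA and every AGATAG, and likewise every TGATAA and every TGATAG, on either strand, words of the kind that GATA factors bind, and a match on the opposite strand appears as its reverse complement.
Cpa3: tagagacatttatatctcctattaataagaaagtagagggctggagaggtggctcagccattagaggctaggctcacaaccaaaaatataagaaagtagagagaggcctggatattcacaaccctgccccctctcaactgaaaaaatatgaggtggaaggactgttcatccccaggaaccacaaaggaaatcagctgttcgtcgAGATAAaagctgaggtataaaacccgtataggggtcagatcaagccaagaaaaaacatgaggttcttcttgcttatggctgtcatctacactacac
Hdc: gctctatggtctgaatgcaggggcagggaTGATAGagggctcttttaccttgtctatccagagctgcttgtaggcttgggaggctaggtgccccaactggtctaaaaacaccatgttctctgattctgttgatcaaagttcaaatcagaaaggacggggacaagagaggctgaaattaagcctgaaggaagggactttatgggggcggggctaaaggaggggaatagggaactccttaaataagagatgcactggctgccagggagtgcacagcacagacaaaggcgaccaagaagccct
Ms4a2: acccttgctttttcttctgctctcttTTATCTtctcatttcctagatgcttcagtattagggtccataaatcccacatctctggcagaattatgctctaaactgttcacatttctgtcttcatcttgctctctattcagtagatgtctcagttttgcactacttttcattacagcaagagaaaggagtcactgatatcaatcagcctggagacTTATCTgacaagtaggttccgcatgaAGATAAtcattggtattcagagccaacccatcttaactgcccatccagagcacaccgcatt
The Cpa3 promoter held AGATAA at position -46 from the start. The Hdc promoter held TGATAG at -221, and the Ms4a2 promoter held AGATAA at -224 and -37 on the opposite strand and at -11 on its own. At least 1 such word was in 29.8% of the 32851 promoters of this length, and at least 3 were in 1.76%. Both annotated Gata2 promoters held 0. Of the 15 genes with the largest rises named below, 10 were in the promoter table and 5 of these held a word, as did 5 of 8 for the 10 largest falls, beside 33.0% of the 27025 genes of the table. A match describes the letters of the window and not binding.

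Members were then set against all other wild-type cells of their own library. UMIs were summed per library and fitted with edgeR's quasi-likelihood test with the library as a block, and Cpa3, Klf1, Prg2 and Prg3 were left out as the genes of the rule. Among 3616 genes tested, 24.6% were called at an adjusted p under 0.05, 12.2% higher and 12.4% lower in members. The fit estimated a spread close to counting error from 4 sums, and 891 calls fell to 298 with DESeq2 and to 193 without the block. Of the calls, 167 passed all 3 tests, 61 of them higher and 106 lower. The 15 largest rises included Hdc, Ms4a2, Gata2, Gata1, Perp and Apoe, and the 10 largest falls included globin genes and S100a9.

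Among effector genes, Hdc stood at 129 CPM in members of F and 105 in members of I, against 43.2 and 38.3 in the other cells, so every member sum lay above every other. It rose 2.87-fold (log2 fold change 1.52, SE 0.08), and its adjusted p ran up to 0.00366 over the alternatives. Ms4a2 stood at 39.7 and 7.74 CPM in members and at 3.44 and 2.77 in the other cells, and the 2 member sums differed more from each other than in any other named rise. Its log2 fold change was 2.77 (SE 0.38, edgeR adjusted p = 1.63e-11), but the adjusted p was 0.0820 without the block, the highest over the alternatives. Of 6 tested genes of the mast granule and enzyme list, 4 rose and 2 fell, beside 24.6% of all genes called. The summed level of the list had no common order, at 3518 and 3905 CPM in members against 4054 and 3424 in the other cells. It stood at 4742 and 5372 CPM in Mcpt8-positive cells, 7023 and 6605 in Prg-positive cells and 1564 and 1580 in Klf1- and Gata1-positive cells. Rab38, a small GTPase of lysosome-related organelles, stood at 69.7 and 69.3 CPM in members against 29.3 and 26.0. Vamp8, a SNARE of granule release, stood at 616 and 620 CPM against 417 and 454. Srgn, the granule proteoglycan serglycin, stood at 1334 and 1332 CPM against 1261 and 1039 and was called by edgeR alone (DESeq2 adjusted p = 0.530). Ctsg, cathepsin G, and Rab32 fell, and Ctsg, at 1341 and 1753 CPM in members against 2249 and 1816, was not called by DESeq2.

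Of 12 receptor and signalling genes tested, 5 rose (Ms4a2, Kit, Cd63, Lat and Syk) and 2 fell (Lat2 and Ifngr1), beside 24.6% of all genes called. The median log2 fold change of the list was 0.03, and 2 of the 12 passed DESeq2. Kit, the stem cell factor receptor used in the sort, stood at 51.1 and 55.5 CPM in members against 41.2 and 44.3. Cd63, a tetraspanin of granule membranes, stood at 647 and 557 CPM in members against 452 and 336. Lat, an adaptor of IgE receptor signalling, stood at 24.5 and 13.7 CPM against 10.9 and 8.82 (DESeq2 adjusted p = 0.164). Fcer1g, the shared gamma chain of Fc receptors, was at 356 CPM in both member sums against 370 and 385 and was not called.

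Regulators of the GATA programme rose together. Of 13 tested, 10 rose and 0 fell, beside 12.2% of all genes called higher, and the median log2 fold change of the list was 0.79 against 0.01 over all genes. Gata2 stood at 103 and 66.1 CPM in members against 21.5 and 19.2, a 4.09-fold rise (log2 fold change 2.03, SE 0.12), with an adjusted p of up to 0.00633 over the alternatives. Gata1 stood at 38.8 and 22.9 CPM against 12.2 and 9.69 (log2 fold change 1.47, SE 0.22). Without the block its adjusted p was 0.0611, the highest over the alternatives. The rule bars Klf1, a gene expressed with Gata1 in erythroid cells, so Gata1 was higher in members although erythroid cells were kept out of them. Its cofactor Zfpm1 stood at 19.4 and 18.3 CPM against 10.5 and 8.11, and Gfi1b, a repressor of erythroid and megakaryocyte cells, at 21.5 and 16.9 against 8.93 and 7.53. Lmo4, a LIM-only adaptor, stood at 336 and 159 CPM against 75.2 and 78.9, and Ikzf2, the zinc finger factor Helios, at 175 and 148 against 38.3 and 41.6. Ikzf2 and Gata2 passed all 3 tests, whereas Zfpm1 and Meis1 passed edgeR with the block only. Runx1, Nfe2 and Myb, broader hematopoietic regulators, rose by less than 1 on the log2 scale.

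Other leading rises were genes without a set place in mast cell biology. Perp, a membrane protein of cell adhesion and p53-dependent death, stood at 63.8 and 71.0 CPM in members against 11.4 and 13.5 (5.43-fold, log2 SE 0.16). Apoe, an apolipoprotein, stood at 1442 and 1052 CPM against 376 and 303 (3.65-fold, log2 SE 0.06), and Apoc1 at 178 and 149 against 55.9 and 55.6. Slc22a3, an organic cation transporter that can carry histamine, stood at 46.0 and 36.2 CPM against 14.4 and 13.2. The mucin Muc13 stood at 33.8 and 27.4 CPM against 7.63 and 6.50, and Rnase12, of the ribonuclease A family, at 41.8 and 19.7 against 6.89 and 4.34. In library I a single member gave 18 of the 56 UMIs of Rnase12. Smim5 and 4930519L02Rik were also among the 15 largest rises by the naming rule, at log2 fold changes of 1.41 and 1.94. Members held 26.0% and 32.5% of all Perp UMIs of F and I, and 23.1% and 23.9% of all Gata2 UMIs.

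**Figure D3:**
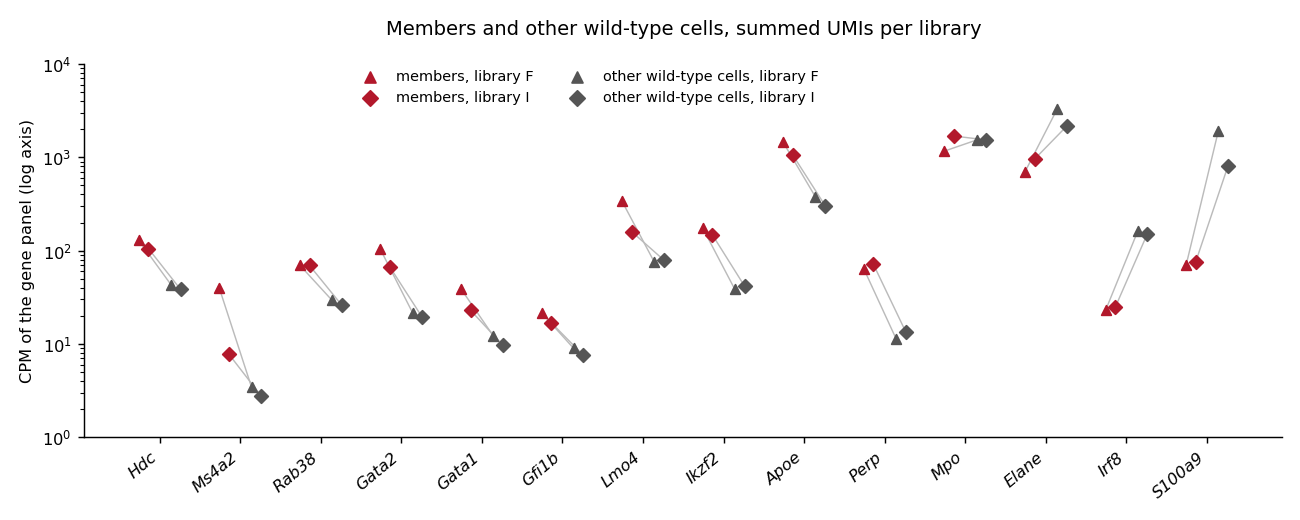
CPM of the panel (log axis) of 14 genes in members (left of each pair) and other wild-type cells (right), joined within library F (triangles) and library I (diamonds). Hdc, Gata2, Apoe and Perp lie higher in members and Irf8 and S100a9 lower in both libraries, while Mpo lies on both sides.

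Genes of other lineages fell, some of them by construction. Erythroid genes fell in 15 of 18 tested, but the rule takes every cell with Klf1 out of the members, so these falls describe the rule. The summed level of the list was 311 and 285 CPM in members against 2908 and 4604, with 5 and 4 of the 18 genes at 0 in members. Neutrophil genes, some of them shared with the cells that the Prg limit removes, fell in 13 of 16, beside 12.4% of all genes called lower, with a summed level of 6592 and 8225 CPM in members against 18824 and 13939. Elane, neutrophil elastase, stood at 698 and 958 CPM in members against 3288 and 2165. S100a9, a calprotectin subunit, stood at 69.7 and 75.9 CPM against 1909 and 806, and 1 member in each library gave 38.8% and 36.1% of its member UMIs. Mpo was not called, at 1165 and 1690 CPM in members against 1532 and 1534.

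Monocyte genes, which the rule did not touch, fell in 13 of 14, with a summed level of 194 and 200 CPM in members against 890 and 840. Irf8, the transcription factor of monocyte and dendritic precursors, stood at 22.8 and 24.6 CPM against 162 and 152 (log2 fold change -2.72, SE 0.10). Ly86 stood at 4.22 and 5.62 CPM against 45.3 and 46.6, and Pld4 at 1.69 and 1.76 against 24.0 and 28.5. Of 7 megakaryocyte genes 3 rose, Gp9 and Nrgn among them, and Pf4 and Mef2c fell, with a nearly equal sum of 265 and 256 CPM in members against 284 and 268. Of 23 S phase genes 2 rose and 3 fell, and of 35 G2/M genes 1 rose and 4 fell, beside 24.6% of all genes. Of 12 stem and multipotent progenitor genes 3 rose and 1 fell, of 3 lymphoid genes 1 rose and 2 fell, of 4 dendritic genes 2 fell, and of 6 basophil genes Mcpt8 rose and Ccl3 and Cd69 fell.

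Members were far from uniform. Gata2 was detected in 54.7% of members in F and 47.2% in I, and Gata1 in 30.2% and 18.6%. Gata1 was found in 39.8% of Gata2-positive members of F against 18.5% of members without Gata2, and in 31.6% against 7.06% in I. Deeper cells detect more of every gene, so such pairs were not taken as a test. In the 54 and 30 members with Gata1, Gata2 stood at 174 CPM in both F and I, against 74.6 and 42.1 CPM in members without Gata1. Lmo4 stood at 666 and 455 CPM in members with Gata1 against 204 and 93.6 in members without. Elane showed the opposite order, at 122 and 159 CPM in members with Gata1 against 929 and 1135 in those without.

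Members with Ms4a2 were few, 31 in F and 11 in I, and Hdc was detected in 26 and 11 of them. Gata1 was detected in 64.5% and 54.5% of these cells, against 23.0% and 16.0% of members without Ms4a2. Gata2 stood at 284 and 267 CPM in these cells, against 65.7 and 51.3 in members without Ms4a2, and Lmo4 at 971 and 724 against 206 and 118. Elane had no common order, at 1027 and 498 CPM against 629 and 991. Ms4a2 chose these cells, and its partners are given as a description with no test, since cells of a library are not replicates. Members with Mcpt8 numbered 19 and 25. Gata1 was in 21.1% and 4% of them (4 and 1 cells), against 31.3% and 21.3% of the 160 and 136 members without Mcpt8. In F a single member held 55 of the 94 Mcpt8 UMIs, and without it the level in members fell to 16.5 CPM, against 39.7 CPM with it. Mcpt8 was called higher in members with this cell in (log2 fold change 1.30, SE 0.23), and its adjusted p was 0.128 without the block, the highest over the alternatives.

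Levels also shifted with the amount of Cpa3. Members with 4 or more UMIs of Cpa3 numbered 82 in F and 74 in I, those with 3 numbered 31 and 30, and those with 2 numbered 66 and 57. Gata2 stood at 123 and 79.1 CPM with 4 or more, 79.3 and 59.4 with 3, and 88.8 and 50.9 with 2. Apoe stood at 1709 and 1338 CPM with 4 or more, 1305 and 936 with 3, and 1175 and 700 with 2. Wild-type cells with 1 UMI of Cpa3, with no Klf1 and under 3 UMIs of the Prg genes, held Gata2 at 44.1 and 30.6 CPM and Apoe at 674 and 551, between the members and the other cells. Elane stood at 2109 and 1710 CPM in these cells. Gata2 in F was the exception to the order, lower with 3 UMIs of Cpa3 than with 2.

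The cells that the other limits removed differed in kind. The 25 and 17 cells with Cpa3 that carried Klf1 held Gata1 at 109 and 153 CPM and Gata2 at 168 and 205. The 15 and 11 cells removed by the Prg genes alone held Hdc at 386 and 322 CPM, above the 129 and 105 CPM of members, and Gata2 at 58.6 and 21.8. High Hdc therefore also marked cells with eosinophil granule transcripts.

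The nearest classes were compared with members in a fit over all wild-type classes. Against Mcpt8-positive cells without Cpa3, 7.11% of 3603 genes were called. Of 13 GATA-programme regulators 10 were higher in members and 0 lower. Gata2 stood at 103 and 66.1 CPM in members and at 12.0 and 7.74 in Mcpt8-positive cells (log2 fold change 3.13, SE 0.31, edgeR adjusted p = 7.15e-06). Gata1 stood at 38.8 and 22.9 CPM in members and at 0 and 2.21 in Mcpt8-positive cells (log2 fold change 4.74, SE 0.75, edgeR adjusted p = 0.000781). Hdc was 129 and 105 CPM in members and 34.7 and 59.7 in Mcpt8-positive cells (log2 fold change 1.33, SE 0.28, edgeR adjusted p = 0.00707). Rnase12 had 0 UMIs in Mcpt8-positive cells and was at least 17.8-fold higher in members, taking 3 counts over the group as the floor. Irf8 was 22.8 and 24.6 CPM in members and 146 and 92.9 in Mcpt8-positive cells, and Ly6c2, S100a8, Clec5a and Mcemp1 were the other 4 largest falls. Of 14 monocyte genes 5 were lower in members. Ms4a2, Gata2, Gata1 and Muc13 were the other 4 largest rises, and the call of Ms4a2 did not hold without the block (adjusted p = 0.0735, the highest over its alternatives).

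Against Prg2- and Prg3-positive cells, 19.8% of 3604 genes were called. Gata2 was 103 and 66.1 CPM in members and 28.7 and 16.6 in Prg-positive cells (log2 fold change 1.75, SE 0.30, edgeR adjusted p = 0.000508), and Gfi1b, Zfpm1, Meis1, Runx1 and Lmo2 were higher too, while Myb was lower. Hdc was the reverse, 129 and 105 CPM in members and 264 and 245 in Prg-positive cells (log2 fold change -1.25, SE 0.21, edgeR adjusted p = 0.000440). Perp was 63.8 and 71.0 CPM in members and 59.2 and 71.9 in Prg-positive cells, overlapping ranges, and was not called. All 16 neutrophil genes were lower in members, among them Camp, at 8.44 and 3.52 CPM in members and 585 and 597 in Prg-positive cells. Ctla2a, a cathepsin inhibitor, led the rises, with a log2 fold change of 2.92 (SE 0.27). The progenitor genes Cd34, Cd27, Sox4, Meis1, Mycn, Adgrl4 and Egfl7 were higher in members, 7 of 12 tested in that list.

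Against Klf1- and Gata1-positive cells, 37.5% of 3603 genes were called. The GATA programme here ran the other way, with 2 regulators higher and 6 lower in members of 12 tested. Gata2 was 103 and 66.1 CPM in members and 127 and 130 in Klf1- and Gata1-positive cells (log2 fold change -0.71, SE 0.14, edgeR adjusted p = 0.000892). Zfpm1 was 19.4 and 18.3 CPM in members and 97.9 and 68.9 in Klf1- and Gata1-positive cells. Of 16 neutrophil genes 10 were higher in members and 0 lower, and of 14 monocyte genes 6 were higher and 0 lower. Mpo stood at 1165 and 1690 CPM in members and 222 and 238 in Klf1- and Gata1-positive cells. Ctsg, Igsf6, Adgrl4 and Hp were among the 5 largest rises. The rule bars Klf1 from members, and the other class was chosen by Klf1 and Gata1. Falls of erythroid genes here therefore describe the rules. Alas2, the erythroid enzyme of heme synthesis, had 0 UMIs in members and was at least 209-fold lower, at 88.3 and 153 CPM in Klf1- and Gata1-positive cells. Rhd, Trim10, Cldn13 and Lmna were also at 0 in members, at least 159-fold, 115-fold, 115-fold and 73.6-fold lower, although DESeq2 did not call Rhd, Trim10 or Lmna. Apoe, at 1442 and 1052 CPM in members and 1477 and 1265 in Klf1- and Gata1-positive cells, was shared by both, with overlapping ranges and a log2 fold change of -0.25 (SE 0.07, edgeR adjusted p = 0.0116; 0.324 without the block, the highest adjusted p of the 3 tests run).

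**Figure D4:**
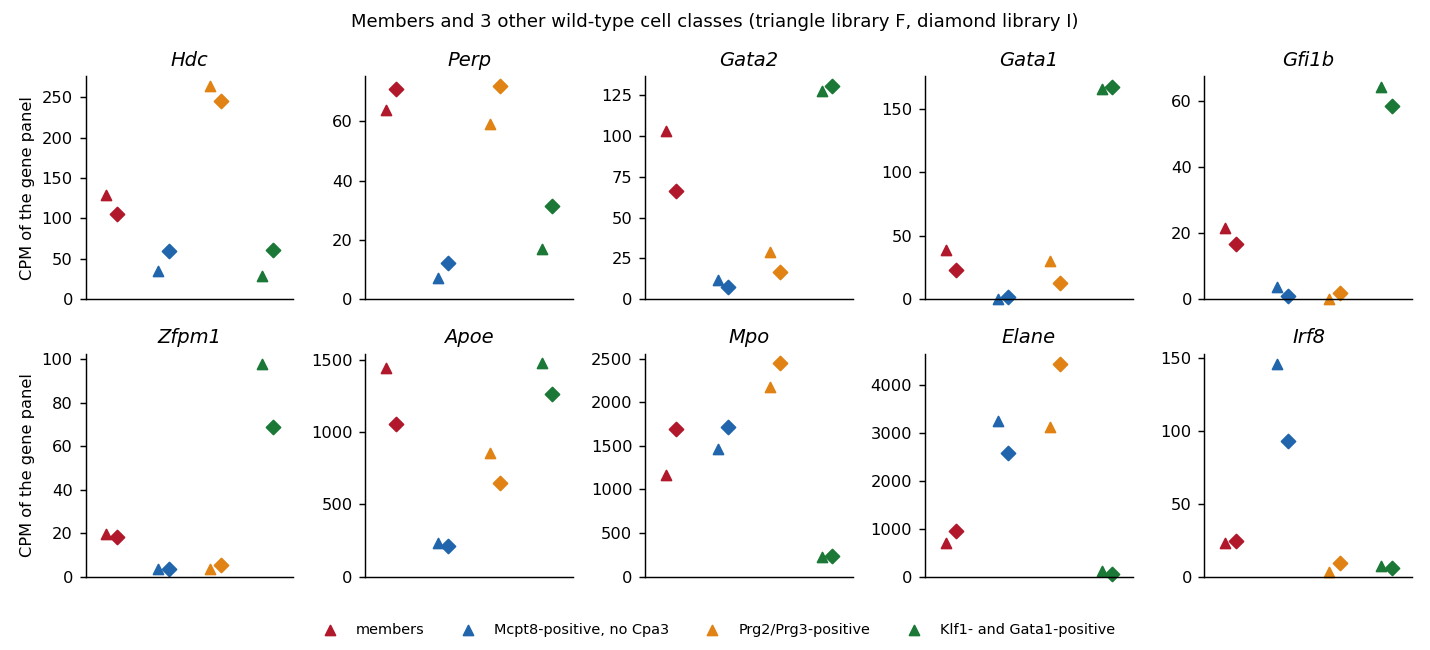
CPM of the panel (y axes) of 10 genes in members, Mcpt8-positive cells, Prg2/Prg3-positive cells and Klf1- and Gata1-positive cells of wild-type libraries F (triangles) and I (diamonds). Members combine Gata2 at 103 and 66.1 CPM with Mpo at 1165 and 1690 CPM, while Zfpm1 peaks in Klf1- and Gata1-positive cells and Hdc in Prg-positive cells. Gata1 also peaks in Klf1- and Gata1-positive cells, which it helped to choose.

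Since members were nearly missing from the enhancer-deleted libraries, genotypes were not fitted within them. The single member in A had 10735 UMIs, with 2 of Cpa3, 2 of Gata2, 1 of Gata1, 2 of Perp and 23 of Apoe, and none of Hdc. The single member in B had 9144 UMIs, with 2 of Cpa3 and 16 of Apoe, and none of Hdc, Gata2, Gata1 or Perp. With the limit at 1 UMI of Cpa3, A and B held 7 and 18 cells, against 315 and 296 in F and I. Hdc was found in 0 of 7 and 1 of 18 of these, against 171 of 315 and 187 of 296. The Hdc sum of B, 1 UMI or 6.59 CPM with an exact 95% Poisson interval of 0.167 to 36.7, lay under the 108 and 90.2 CPM of F and I. For A the 62697 UMIs of 7 cells allow up to 58.8 CPM of Hdc by the same interval.

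The genes that mark members were also measured in the cells left when members were taken out, to see whether they differed by genotype there. Of 3618 genes 7.99% were called, 2.38% higher in A and B and 5.61% lower there (edgeR, quasi-likelihood, no block). In bulk sums of this kind, fewer cells that express a gene and less RNA per cell cannot be told apart. Hdc stood at 3.51 and 3.67 CPM in A and B against 43.2 and 38.3 in F and I (log2 fold change -3.56, SE 0.16, edgeR adjusted p = 0.00232), with an adjusted p of up to 0.0305 over the alternatives. Gata2 stood at 7.37 and 6.73 CPM against 21.5 and 19.2 (log2 fold change -1.59, SE 0.20, edgeR adjusted p = 0.0118). Gata1 stood at 0.713 and 0.603 CPM against 12.2 and 9.69, and Ms4a2 at 0.357 and 0.251 against 3.44 and 2.77. Perp stood at 1.72 and 2.66 CPM against 11.4 and 13.5, and Apoe at 140 and 96.7 against 376 and 303.

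Among the 15 named rises, 11 were lower in the enhancer-deleted cells outside members, among them these 6 genes and Muc13, Ikzf2, Lmo4 and Smim5. The calls of Gata2, Perp, Ms4a2, Muc13 and Smim5 did not hold without library A or without library B, and those of Gata1 and Ikzf2 did not hold without library B. The adjusted p of Gata2 was 0.0579 without A and 0.108 without B, the highest over its alternatives. Ms4a2, at 0.127 and 0.252 without A and B, also lost its call when every cell with a Cpa3 UMI was taken out (adjusted p = 0.0575), as did Ikzf2 (0.0832). Of the 13 regulators 5 were lower and 0 higher. Gata2, Gata1, Apoe and Ms4a2 were also high in Klf1- and Gata1-positive cells of the wild type, which made up 0.0895% and 0.0729% of A and B against 4.80% and 4.95% of F and I, and their part in these differences was not tested. Rnase12 (adjusted p = 0.0600), Apoc1 (0.0628), Slc22a3 and 4930519L02Rik were not called. Slc22a3 stood at 17.3 and 17.6 CPM in A and B against 14.4 and 13.2 in F and I, on the other side. Mcpt8 (13.7 and 17.2 CPM against 11.8 and 10.5) and Kit (40.3 and 39.6 against 41.2 and 44.3) were not called either. With all cells in, 8.86% of genes were called, and the log2 fold change of Hdc was -3.74 and that of Gata2 -1.85, beside -3.56 and -1.59 without members; these 2 fits share their libraries.

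**Figure D5:**
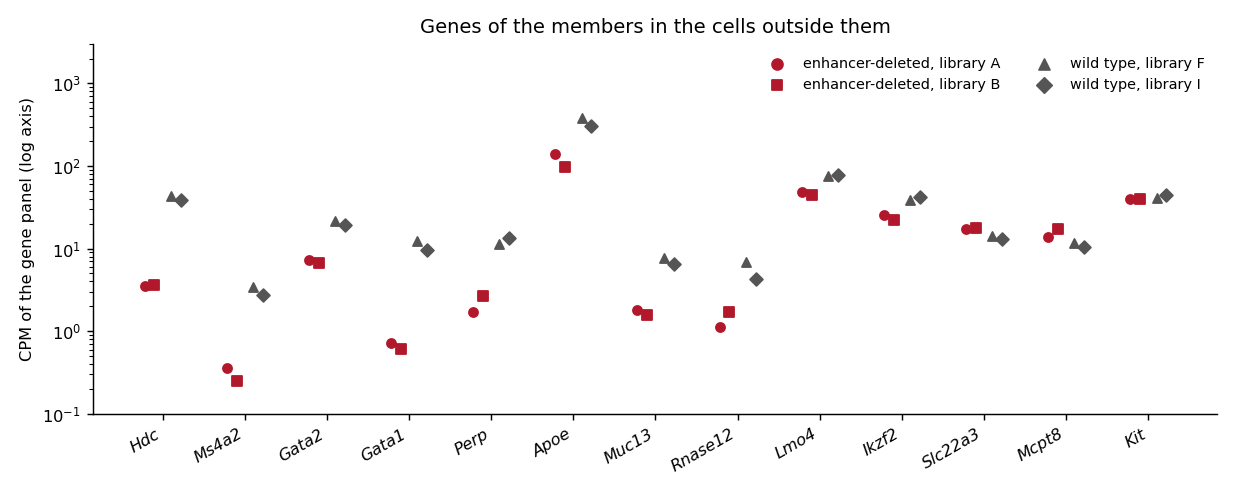
CPM of the panel (log axis) of 13 genes in cells outside the members of enhancer-deleted libraries A and B (left) and wild-type libraries F and I (right). Hdc, at 3.51 and 3.67 CPM in A and B, lies under its 43.2 and 38.3 CPM in F and I, while Mcpt8, Slc22a3 and Kit differ little.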

How the data were processed

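UMI counts per gene and cell were deposited by the authors as whole numbers, not normalized, for 3624 genes and 9960 cells of 4 libraries; other deposited files give the gene symbols and each cell's genotype and library letter. Per the submitters' processing notes, Cell Ranger 2.0.2 and Seurat 2.3.4 were used with mm10; how these genes and cells were chosen is not given in the sources used here. Library letters are not tied to the numbered samples of the labels, so they serve as names. The members and gene lists were chosen with earlier results of these data known.

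Counts were summed per library and class and expressed as CPM of the panel. edgeR 4.0.16 (R 4.3.3) gave quasi-likelihood tests with TMM scaling and Benjamini-Hochberg adjustment at 0.05 over all genes tested. Comparisons within the wild type had the library as a block, because the sums compared come from the same library, and the genotype fits had none. DESeq2 1.42.0 was the alternative. The fits, apart from the genotype fit over all cells, were also run on simulated counts in which 200 genes had been changed. Shares of cells had exact 95% binomial intervals and an exact permutation test over libraries, and intervals cover counting error only. Cells were thinned in python 3.11.15.

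Scrublet (scanpy 1.11.5) marked 11 cells in all, 0 of them members, which is too few for it to have worked, so doublets were not removed. Named genes were Cpa3, Hdc, Gata2, Apoe and Perp, the 15 largest rises and 10 largest falls against other wild-type cells among genes of at least 20 CPM called with both libraries on 1 side, the 5 largest each way against other classes, and up to 4 per gene list by p. Some genes that the rule names are not reported here. Co-detection partners and cells outside the limits were chosen after their values were seen. Alternatives tried were other size factors, no expression filter, no block, each library left out, other limits of the rule, and the removal of marked or very deep cells.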

Additional observations from a re-analysis of the deposited data

How the results depend on the processing

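The member share stayed lower in the enhancer-deleted libraries under every limit tried. The difference was -7.06 percentage points, -12.3 with 1 UMI of Cpa3, -4.54 with 3 UMIs and -2.60 after thinning with 2 UMIs, and -8.27 to -5.84 when a library was left out. The 891 calls against other wild-type cells became 298 with DESeq2, 193 with no replicate block and 517 with 3 UMIs of Cpa3. With no replicate block the 256 calls against Mcpt8-positive cells became 109, and the 713 against Prg-positive cells 462. Of 82 genes named in the comparison with other wild-type cells, 31 lost the call under at least 1 alternative. The 289 genotype calls outside members ranged from 77 to 311 when a library was left out (148 without library A and 77 without library B), and the 321 in all cells from 66 to 291 (66 without A, 112 without B). DESeq2 gave 714 and 734. Directions turned only for named genes that were not called: Ifitm1 (log2 fold change 0.12, -0.35 with 1 UMI of Cpa3 and -0.68 without library F), Junb (0.09, -0.033 and -0.050 with 1 and 3 UMIs), Lta4h (-0.24, and 0.06 without F), Fabp5 (0.08, and -0.0037 without F), Hmox1 (-0.43, and 0.38 without I), Ier2 (-0.12, and 0.14 without I) and, for genotype, 4930519L02Rik (-0.17, and 0.14 with every Cpa3-positive cell taken out). The cause of these changes was not tested. No paired analysis was possible because the library letters are not tied to the sample numbers of the labels, so enhancer-deleted and wild-type libraries share no number. With 2 libraries per genotype, the exact test cannot go below 0.333.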
